A study of Mus musculus with 22 samples.

Results

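The collagen genes were described by structural class in mouse tumours that carried the SS18-SSX fusion together with loss of Snf5 (Smarcb1), loss of Snf5 alone, or the fusion alone. The members were all protein-coding rows of the count table whose mouse symbol reads Col, a number, the letter a and a number. There were 44 of them among 48440 rows. The rule itself uses no measured value, although it was chosen with earlier results of these data known. They fell into 5 classes: 8 fibrillar, 7 cartilage, 9 basement membrane, 8 network-forming and 12 other collagens. Of the 44, 43 passed the filter on low counts. The exception was Col10a1, the type X collagen of hypertrophic cartilage, which had between 0 and 16 counts in a library.

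The RNA-seq libraries came from 22 fresh frozen tumours in 6 groups. The combined tumours were labelled SS18-SSX+/- and Snf5-/-, with 4 libraries made under Myf5Cre and 4 under TATCre. The Snf5-null tumours were labelled SNF5-/-, with 3 libraries under Myf5Cre and 5 under TATCre. The SS18-SSX tumours were labelled SS18-SSX+/-, with 3 libraries under Myf5Cre and 3 for which no Cre was stated. The SS18-SSX libraries bear the model name SSM2 in their titles, and the fusion was heterozygous in every tumour that had it. Myf5Cre recombines in cells that express or descend from cells that expressed the myogenic gene Myf5, while TAT-Cre is a Cre protein that enters whichever cells it reaches, so the cell that formed each tumour can differ between the groups. Strain labels were C57BL with a trailing number that differed in every sample, and the labels do not say which tumours came from separate animals, so p-values measure only the spread between these samples.

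Collagens are helical proteins wound from chains that each come from a gene of their own. Fibrillar collagens (types I, III and V, with XXIV and XXVII) bundle into the fibres of connective tissue, and types II, IX and XI build the fibres of cartilage. Type IV collagens form the sheet of the basement membrane, where type VII anchors it and types XV and XVIII border it, while types VI and VIII assemble into beaded filaments and lattices. The remaining members include fibre-associated collagens such as types XII and XIV and collagens that span the cell membrane such as types XIII, XVII, XXIII and XXV. In sarcomas collagen RNA can come from tumour cells or from stroma, and in these bulk samples fewer cells of a type and less RNA per cell cannot be told apart.

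Depth ranged from 8642648 to 25177722 counts per library. The deleted gene followed the labels in direction: Smarcb1 lay between 0.909 and 3.66 CPM (counts scaled to library size with TMM factors) in combined tumours, between 10.6 and 26.9 CPM in Snf5-null tumours and between 47.1 and 111 CPM in SS18-SSX tumours. Libraries N49 of the combined TATCre group, N1 of the Snf5-null TATCre group and N381 of the SS18-SSX Myf5Cre group were the least like their own groups. Many results that rest on one of them are also given without it. All combined and Snf5-null libraries share 1 number series in their descriptions and the SS18-SSX libraries hold others, so series and fusion-only genotype cannot be told apart. Markers of other cell types also moved with genotype. The summed level of 8 macrophage and leucocyte markers was 62.5 to 763 CPM in combined tumours, 1306 to 4909 CPM in Snf5-null tumours and 83.2 to 512 CPM in SS18-SSX tumours, with all 8 genes called lower in the combined over Snf5-null comparison. The sum of 12 fibroblast markers was 520 to 2066, 1360 to 5623 and 608 to 4343 CPM in the same order. In combined over Snf5-null tumours 9 of 12 were called lower and 2 higher, where 20.5% of all genes were called lower and 29.1% higher. The part of these cells in the collagen results was not tested.

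The share of RNA that was collagen overlapped between the tumour types, while the make-up by class differed. They took 0.431% to 3.31% of all counts in combined tumours, 0.858% to 3.03% in Snf5-null tumours and 0.614% to 3.42% in SS18-SSX tumours. On a per-length scale (CPM per kilobase of mRNA, which allows genes to be added), cartilage collagens made up 9.85 ± 3.64% of the collagen level in combined tumours (SD, n = 8), 0.603 ± 0.566% in Snf5-null tumours (n = 8) and 17.0 ± 10.7% in SS18-SSX tumours (n = 6). The shares did not overlap between combined tumours, at 4.48% to 14.7%, and Snf5-null tumours, at 0.108% to 1.72%. Col2a1 was the largest cartilage member in every combined and SS18-SSX library except combined Myf5Cre N3, where Col11a2 was. In combined TATCre N49 it took 6.88% of the collagen level, out of 6.90% for the class. In Snf5-null libraries the largest was Col2a1 in TATCre N1 and N49 and Col11a1 in the others. Fibrillar collagens made up 39.7 ± 21.9%, 65.9 ± 9.79% and 44.2 ± 17.0% in combined, Snf5-null and SS18-SSX tumours. Basement membrane collagens made up 30.7 ± 16.6%, 11.2 ± 3.73% and 24.0 ± 11.7%, and network collagens 10.8 ± 6.03%, 15.8 ± 8.73% and 6.35 ± 3.66%. The remaining collagens stayed at 9.02 ± 4.38%, 6.51 ± 1.37% and 8.54 ± 4.02%. Shares are given as a description with no test, since they are sums over members.

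The leading genes differed in part by genotype. Per kilobase, Col3a1 ranked first in combined tumours with a mean of 454, followed by the basement membrane chains Col4a1 at 310 and Col4a2 at 194. Those Col4a1 and Col4a2 means rest in part on TATCre N49, at 1154 and 775.5. The medians were 401 for Col3a1, 147 for Col4a1 and 91.0 for Col4a2, the last below Col1a2 at 120 and Col18a1 at 106. Col1a2, at 815, led in Snf5-null tumours, ahead of Col3a1 at 721 and Col5a2 at 357. In SS18-SSX tumours Col3a1 at 583 led, and the cartilage collagen Col2a1, at 442, stood second just above Col1a1 at 439. These neighbouring means lay well within the spread of each other, with SDs of 377 and 383 for Col3a1 and Col4a1 in combined tumours and 420 and 376 for Col2a1 and Col1a1 in SS18-SSX tumours.

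**Figure D1:**
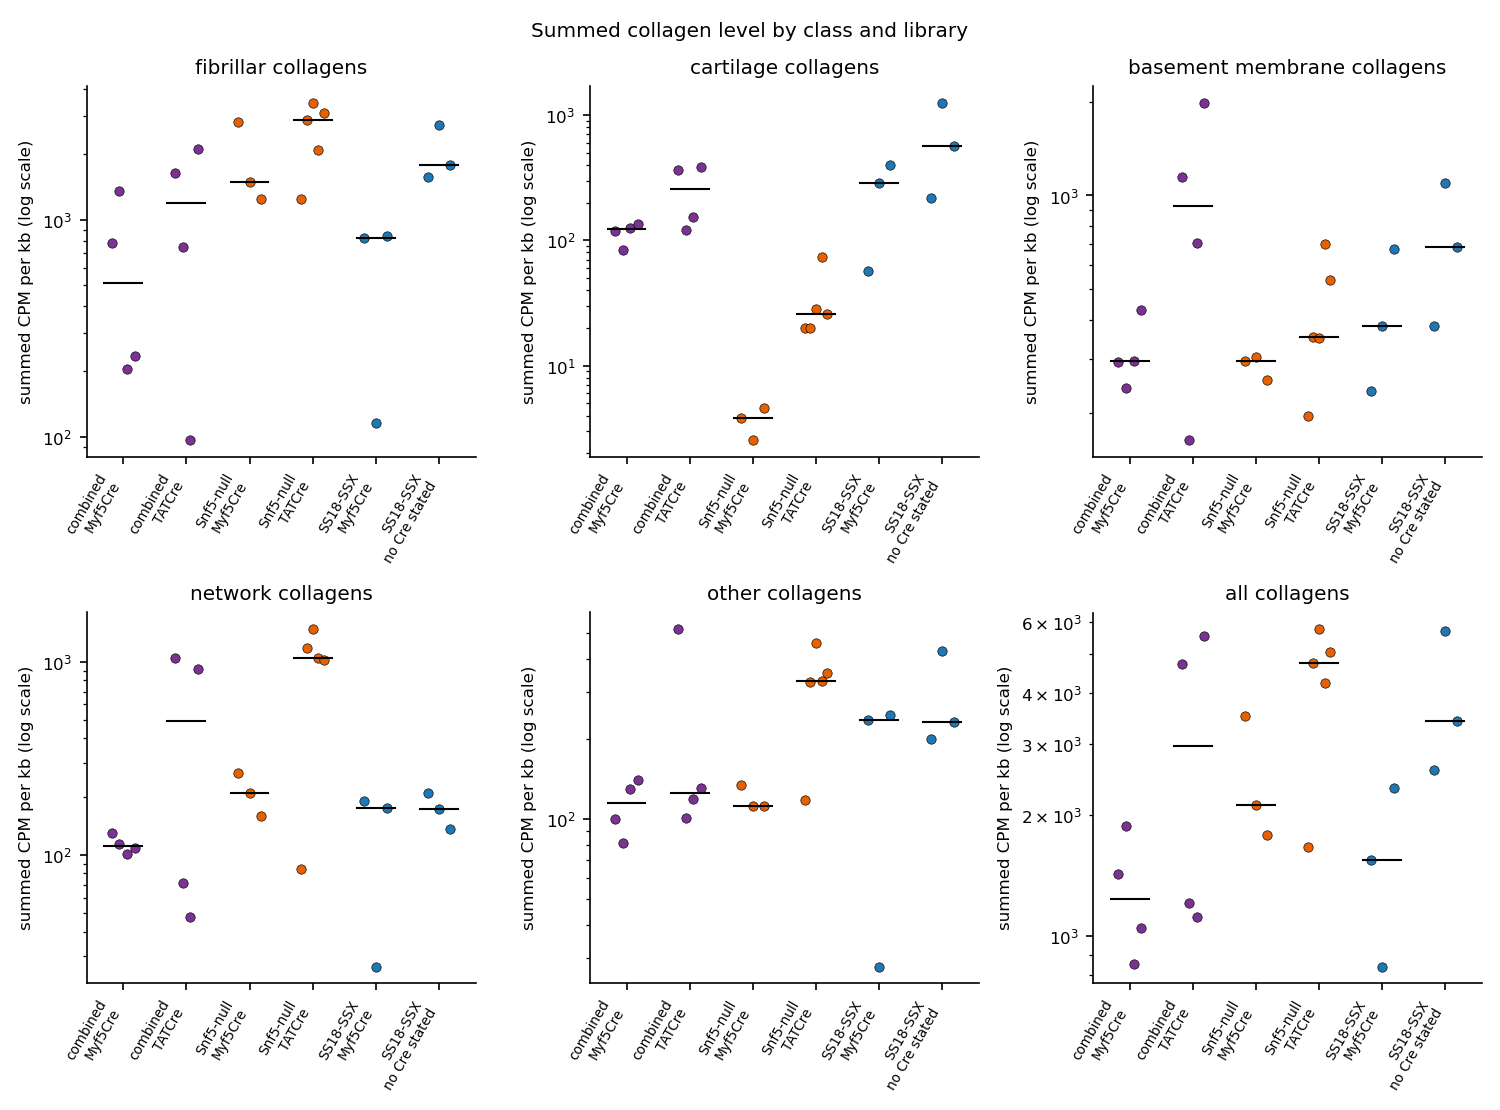
Summed level of each collagen class (CPM per kilobase, log axis) in every library, grouped by genotype and Cre; each point is a library and the line is the group median. The cartilage panel shows the Snf5-null libraries at 2.55 to 73.0, against 84.2 to 382 in combined libraries.

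Gene by gene, 12 of 43 tested collagens rose and 10 fell in combined over Snf5-null tumours (edgeR quasi-likelihood test, Benjamini-Hochberg adjusted p below 0.05 over all genes tested). That is close to the background of this comparison, in which 49.5% of all 18929 genes tested were called, 29.1% higher and 20.5% lower, and the median log2 fold change was 0.41 for collagens and 0.23 for all genes. Against SS18-SSX tumours, 6 collagens were higher and 7 lower in combined tumours, where 44.9% of all genes were called, 23.1% higher and 21.8% lower, with medians of 0.15 for collagens and -0.09 for all genes. Between Snf5-null and SS18-SSX tumours 11 were higher and 12 lower, where 48.1% of all genes were called, 22.2% higher and 25.9% lower, with medians of -0.51 and -0.06. Collagens were called at 22 of 43, 13 of 43 and 23 of 43, and the directions differed by class and by chain. A gene is called here where this edgeR fit over all libraries passed it. Other settings that change a call are named for many calls but not in full. The 3 comparisons share their samples pairwise, so their values are set side by side and not counted as separate support.

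**Figure D2:**
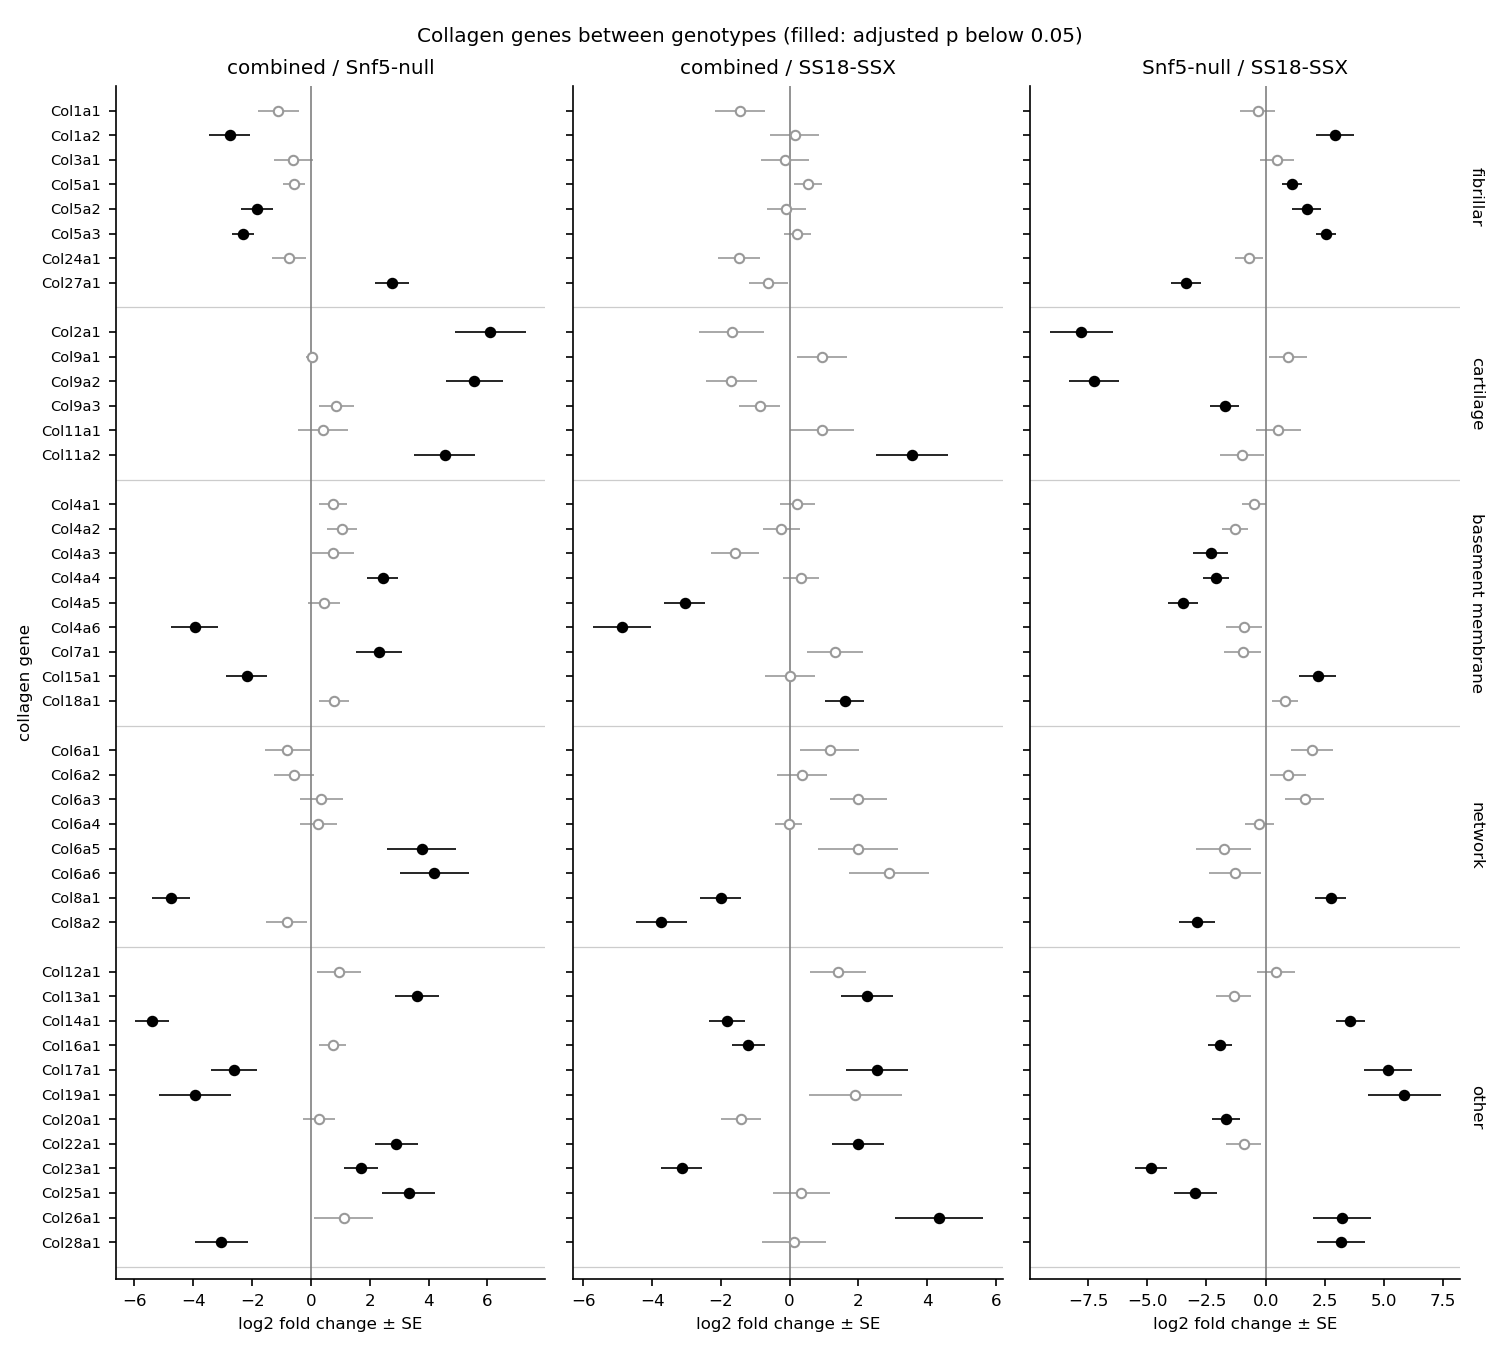
Log2 fold change with its standard error for each tested collagen, arranged by class, for combined over Snf5-null, combined over SS18-SSX and Snf5-null over SS18-SSX tumours; filled points passed an adjusted p of 0.05. Cartilage collagens include the values of greatest size, such as 6.09 and -7.78 for Col2a1, and fibrillar collagens stand on both sides of 0.

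Fibrillar collagens that were called in combined over Snf5-null tumours fell, except for the long type XXVII chain, which rose. Of 8, 3 fell (Col1a2, Col5a2, Col5a3) and 1 rose (Col27a1), with a class median of -0.93. The edgeR fit called none of the 8 between combined and SS18-SSX tumours, where DESeq2 called 1 (Col24a1, -1.55, adjusted p = 0.0187). By edgeR 4 were higher and 1 lower in Snf5-null than in SS18-SSX tumours. The edgeR shares called over all genes were 49.5%, 44.9% and 48.1% in these comparisons. Col1a2 (ENSMUSG00000029661, chr6:4504814-4541544, GRCm38), the second chain of type I collagen, measured 48.0, 642 and 2122 CPM (lowest, median and highest) in combined tumours, 1197, 4444 and 7117 CPM in Snf5-null tumours and 75.2, 815 and 1170 CPM in SS18-SSX tumours. Every Snf5-null library lay above every SS18-SSX library, whereas combined and Snf5-null libraries overlapped through N49 of the combined TATCre group and N1 of the Snf5-null TATCre group. The log2 fold change of Col1a2 was -2.77 ± 0.71 (SE) for combined over Snf5-null tumours (adjusted p = 0.00387) and 2.92 ± 0.80 for Snf5-null over SS18-SSX tumours (adjusted p = 0.00575), which was 3.96 without SS18-SSX Myf5Cre N381. That second call was lost when TATCre tumours were set against those with no Cre stated, at 2.255 (adjusted p = 0.109).

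Its partner chain did not pass the edgeR test in the 3 comparisons. Col1a1, the main chain of type I collagen, measured 38.9, 564 and 2505 CPM in combined tumours, 464, 1863 and 3538 CPM in Snf5-null tumours and 24.0, 2017 and 5824 CPM in SS18-SSX tumours. The groups overlapped throughout, with log2 fold changes of -1.10 ± 0.69 (adjusted p = 0.194), -1.44 ± 0.73 (0.113) and -0.34 ± 0.74 (0.727) for combined over Snf5-null, combined over SS18-SSX and Snf5-null over SS18-SSX tumours. Without SS18-SSX Myf5Cre N428 the combined over SS18-SSX change was -1.70 (adjusted p = 0.0431). The ratio of Col1a1 to Col1a2 per kilobase ran from 0.634 to 3.78 in combined tumours, from 0.126 to 0.453 in Snf5-null tumours and from 0.253 to 14.1 in SS18-SSX tumours. Type I collagen is normally built with more of the Col1a1 chain, and every Snf5-null library held less Col1a1 than Col1a2 RNA per length. Combined and Snf5-null ratios did not overlap. Col3a1, the type III chain of soft tissue and vessel walls, was abundant everywhere, at 236, 2230 and 5275 CPM in combined, 1921, 3968 and 6528 CPM in Snf5-null and 42.9, 2588 and 7231 CPM in SS18-SSX tumours, and was called in none of these comparisons by edgeR or DESeq2.

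Type V collagen, which sits inside type I fibres and sets their width, followed Col1a2 in part. Col5a3 measured 10.3, 17.5 and 101 CPM in combined tumours, 51.9, 116 and 154 CPM in Snf5-null tumours and 7.22, 19.7 and 39.7 CPM in SS18-SSX tumours. It was -2.32 ± 0.38 for combined over Snf5-null tumours (adjusted p = 8.3e-05) and 2.54 ± 0.42 for Snf5-null over SS18-SSX tumours (adjusted p = 0.000101), and no Snf5-null library overlapped an SS18-SSX library. Col5a2 changed by -1.84 ± 0.55 (adjusted p = 0.0108) and 1.74 ± 0.61 (adjusted p = 0.0248) in the same comparisons. Col5a1 passed only between Snf5-null and SS18-SSX tumours, at 1.12 ± 0.42 (adjusted p = 0.0339), with 344, 632 and 1206 CPM against 167, 258 and 550 CPM, and missed the threshold without SS18-SSX Myf5Cre N381, SS18-SSX Myf5Cre N428 or Snf5-null Myf5Cre N30 (1.08 to 1.16, adjusted p of 0.0516 to 0.0571). With TATCre set against no Cre stated, Col5a2 was 1.23 (adjusted p = 0.255) and Col5a1 0.844 (adjusted p = 0.258), and with Myf5Cre groups only they were 2.25 (adjusted p = 0.0619) and 1.40 (adjusted p = 0.087). The combined over Snf5-null calls of Col1a2, Col5a2 and Col5a3 were lost when the TATCre groups alone were compared, at -2.37 (adjusted p = 0.0634), -1.08 (0.259) and -1.29 (0.0513), while that of Col27a1 held in every alternative.

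Col27a1, a long fibrillar collagen expressed in developing cartilage, had the opposite profile. It measured 0.876, 54.0 and 202 CPM in combined tumours, 8.70, 9.93 and 19.3 CPM in Snf5-null tumours and 41.3, 122 and 222 CPM in SS18-SSX tumours. Snf5-null libraries were tightly grouped and lay below every SS18-SSX library. The log2 fold change was 2.75 ± 0.59 for combined over Snf5-null tumours (adjusted p = 0.00107), -0.62 ± 0.57 for combined over SS18-SSX tumours (adjusted p = 0.385) and -3.38 ± 0.63 for Snf5-null over SS18-SSX tumours (adjusted p = 0.000296). Col24a1, a minor fibrillar collagen of bone, did not exceed 2.98 CPM in any library. In combined over SS18-SSX tumours it was -1.47 (adjusted p = 0.0545) by edgeR, -1.55 (adjusted p = 0.0187) by DESeq2 and -1.53 (adjusted p = 0.0466) with DESeq2 size factors in edgeR.

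Cartilage collagens included the log2 fold changes of greatest size between genotypes. Of 6 tested, 3 rose in combined over Snf5-null tumours and none fell, with a median of 2.71. In combined over SS18-SSX tumours 1 rose, and in Snf5-null over SS18-SSX tumours 3 fell with none higher. These counts stand near or below the share of all genes called, which was 49.5%, 44.9% and 48.1% in the same order. Col2a1 (ENSMUSG00000022483, chr15:97975602-98004695), the main collagen of cartilage fibres, measured 286, 527 and 1945 CPM in combined tumours, 0.275, 1.62 and 182 CPM in Snf5-null tumours and 238, 1595 and 6265 CPM in SS18-SSX tumours. No Snf5-null library reached the lowest library of either other genotype. Within the Snf5-null tumours, TATCre N49 at 182 CPM and N1 at 48.7 CPM stood apart from the other 6 libraries, none of which passed 1.88 CPM. The log2 fold change was -7.78 ± 1.33 for Snf5-null over SS18-SSX tumours (adjusted p = 0.00013; -8.73 without Snf5-null TATCre N49), against 6.09 ± 1.20 for combined over Snf5-null tumours (adjusted p = 0.000519; 7.08 without that library). Between combined and SS18-SSX tumours Col2a1 did not pass the test, at -1.69 ± 0.95 (adjusted p = 0.154).

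Col9a2, a chain of the type IX collagen that coats cartilage fibres, measured 0.220, 5.66 and 40.0 CPM in combined tumours, 0.0498, 0.192 and 1.52 CPM in Snf5-null tumours and 9.00, 24.2 and 56.7 CPM in SS18-SSX tumours. It rose by 5.55 ± 0.96 in combined over Snf5-null tumours (adjusted p = 0.000163) and by 4.57 without combined TATCre 78774, and Snf5-null libraries all lay below SS18-SSX libraries (-7.25 ± 1.05, adjusted p = 2.84e-05; -6.58 without SS18-SSX Myf5Cre N460). The other type IX chains stayed low. Col9a1 did not pass 3.63 CPM in any library, and Col9a3 reached at most 4.33 CPM in combined, 1.31 CPM in Snf5-null and 4.002 CPM in SS18-SSX tumours. Col9a3 was lower in Snf5-null than in SS18-SSX tumours, at -1.73 ± 0.61 (adjusted p = 0.0263), but lost the call without any 1 of 6 libraries, at -1.25 to -1.63. That call was also lost in Myf5Cre groups only, at -1.57 (adjusted p = 0.189), and for TATCre against no Cre stated, at -1.90 (adjusted p = 0.077).

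Type XI collagen, which nucleates the cartilage fibre, split between its chains. Col11a2 (ENSMUSG00000024330, chr17:34039437-34066685) measured 5.38, 133 and 527 CPM in combined tumours, 1.71, 3.83 and 53.6 CPM in Snf5-null tumours and 4.83, 17.3 and 27.8 CPM in SS18-SSX tumours. Of the 8 combined libraries, TATCre N49 at 5.64 CPM and TATCre 78777 at 5.38 CPM, were low, and the other 6 lay between 57.2 and 527 CPM. Col11a2 rose in combined over Snf5-null tumours by 4.55 ± 1.04 (adjusted p = 0.00167; 3.80 without combined TATCre 78774 and 5.26 without Snf5-null TATCre N49) and over SS18-SSX tumours by 3.56 ± 1.04 (adjusted p = 0.00999; 2.81 without combined TATCre 78774 and 4.15 without SS18-SSX Myf5Cre N460). The edgeR fit called no other cartilage collagen between combined and SS18-SSX tumours, where DESeq2 also called Col9a2 (-1.77, adjusted p = 0.035). Without combined TATCre 78774 edgeR called Col9a2 too (-2.67, adjusted p = 0.0047). The Col11a2 call against SS18-SSX tumours was lost in Myf5Cre groups only, at 3.94 (adjusted p = 0.0511). It was also lost for TATCre against no Cre stated, at 3.17 (adjusted p = 0.114). Col11a1 measured 1.54, 18.0 and 342 CPM in combined, 8.61, 97.2 and 213 CPM in Snf5-null and 7.05, 10.8 and 230 CPM in SS18-SSX tumours and was not called (0.41 ± 0.86, adjusted p = 0.711, for combined over Snf5-null tumours). The ratio of Col11a1 to Col11a2 per kilobase was 0.0188 to 1.41 in combined tumours and 1.56 to 83.0 in Snf5-null tumours, with no overlap, and 0.178 to 33.5 in SS18-SSX tumours.

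Non-collagen cartilage genes were set beside these chains. The summed level of 11 chondrocyte markers was 4.35 to 286 CPM in combined tumours, 175 to 1526 CPM in Snf5-null tumours and 28.8 to 105 CPM in SS18-SSX tumours, so the genotype with the lowest Col2a1 had the highest range of the marker sum. Their part in the cartilage collagen results was not tested. Of 9 markers tested, 5 fell in combined over Snf5-null tumours and 1 rose (Cnmd, a cartilage matrix protein, 4.09 ± 1.43, adjusted p = 0.024). Over all genes 20.5% were called lower and 29.1% higher. Comp, which binds collagen in cartilage and tendon, was -5.87 ± 0.87 (adjusted p = 3.4e-05). The combined TATCre library N49, with the highest Col2a1 of its genotype at 1945 CPM, had Acan, Snorc, Cnmd, Chad, Ucma and Epyc at 0. Snorc, Chad or Ucma was also at 0 in every one of the other 7 combined libraries. Zeros in the other genotypes are not listed here, and only 9 of the 11 markers passed the filter on low counts.

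**Figure D3:**
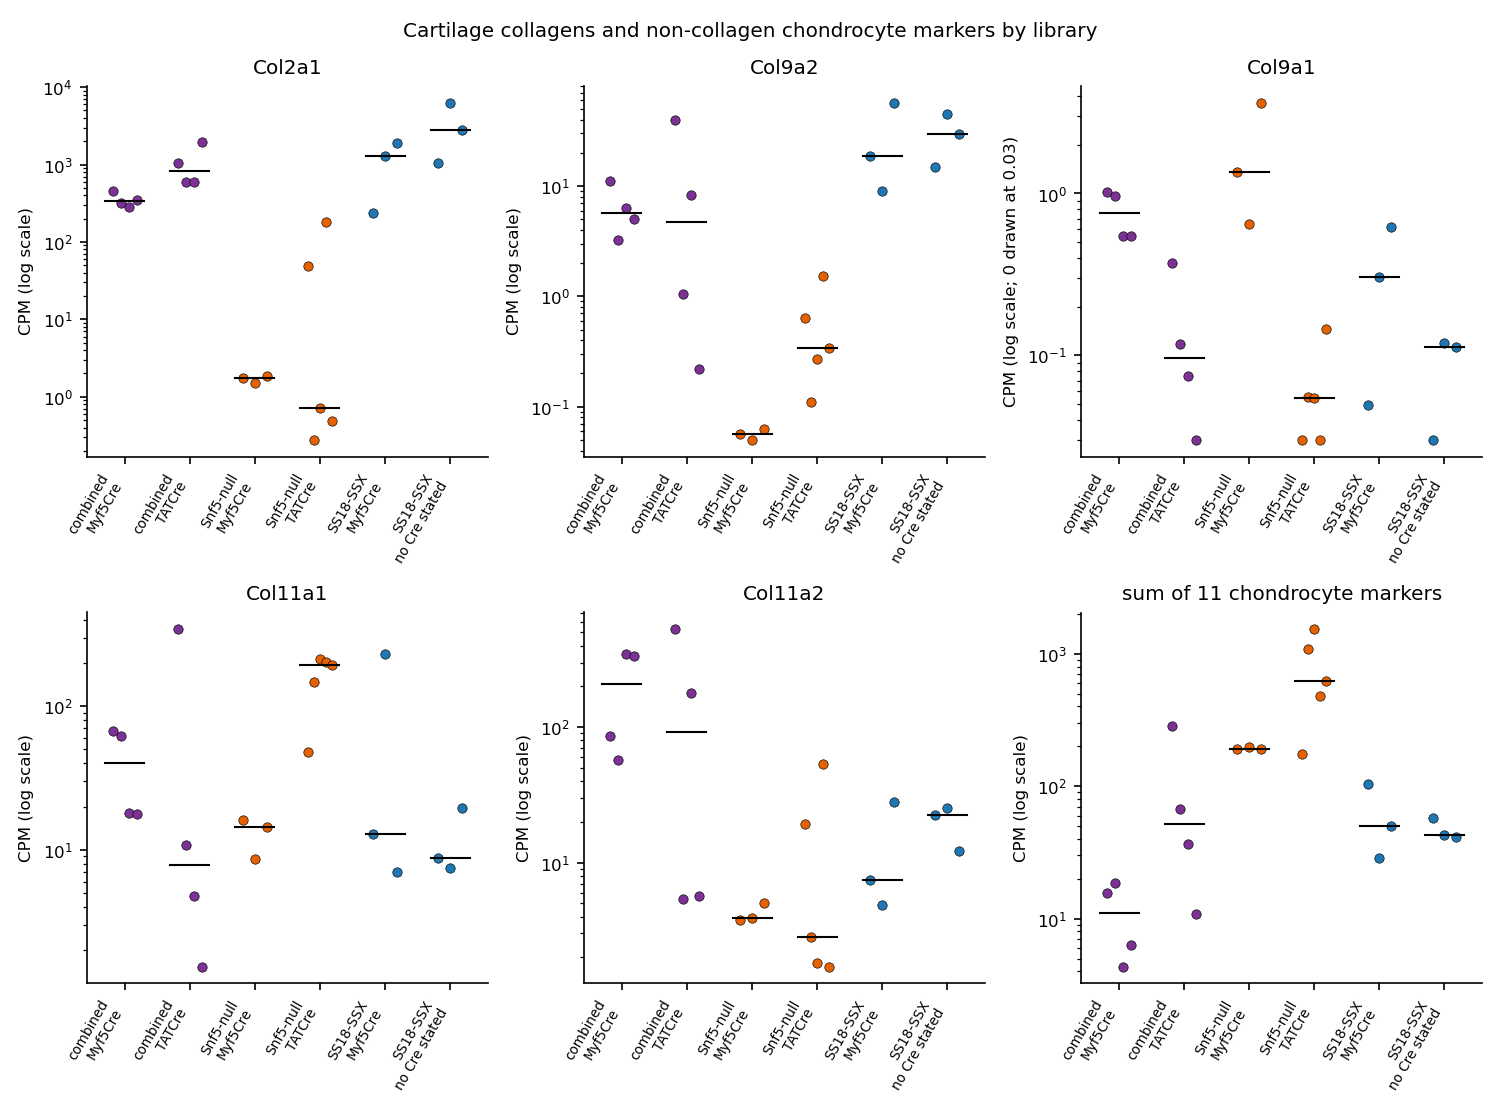
Level of cartilage collagens and summed level of 11 chondrocyte markers (CPM, log axis) in every library by genotype and Cre; points are libraries, lines are group medians, and a level of 0 is drawn at the foot of the axis. Col2a1 stands at 286 to 1945 CPM in combined libraries, against 0.275 to 182 CPM in Snf5-null libraries, while Col11a1 overlaps between them.

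Promoter windows, from 250 bases before to 50 bases after each annotated start in RefSeq (GRCm38.p6), were available for 35 of the 44 members in 38 windows. They are shown for the cartilage chains Col9a2 and Col11a2, which rose together in combined over Snf5-null tumours. Windows are also shown for 2 type IV pairs whose genes are transcribed away from each other. Capitals mark the GC box GGGCGG or its reverse CCGCCC, and the CCAAT box CCAAT or its reverse ATTGG, on either strand. A GC box occurs in 35.7% and a CCAAT box in 37.4% of all 32851 windows of the same kind, and 22 members have a GC box. The Col9a2 window (chr4:121039316-121039615, plus strand) holds 3 GC boxes and the Col11a2 window (chr17:34038888-34039187, plus strand) holds 2, and neither has a CCAAT box.
Col9a2: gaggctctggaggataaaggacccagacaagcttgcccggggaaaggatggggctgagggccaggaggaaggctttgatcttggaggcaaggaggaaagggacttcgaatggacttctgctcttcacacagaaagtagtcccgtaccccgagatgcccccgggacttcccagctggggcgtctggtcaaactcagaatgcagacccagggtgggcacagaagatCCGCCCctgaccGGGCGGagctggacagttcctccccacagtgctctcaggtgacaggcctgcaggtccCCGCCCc
Col11a2: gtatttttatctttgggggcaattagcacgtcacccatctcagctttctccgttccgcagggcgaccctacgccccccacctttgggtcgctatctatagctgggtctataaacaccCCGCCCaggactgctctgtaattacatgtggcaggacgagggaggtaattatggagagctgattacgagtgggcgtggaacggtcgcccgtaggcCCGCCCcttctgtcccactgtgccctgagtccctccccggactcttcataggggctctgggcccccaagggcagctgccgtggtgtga

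The most abundant basement membrane collagens were 2 chains that the edgeR fit called in no genotype comparison, while 4 other type IV chains were called in at least 1. Of 9, 2 rose and 2 fell in combined over Snf5-null tumours, and 1 rose and 2 fell in combined over SS18-SSX tumours. In Snf5-null over SS18-SSX tumours 1 rose and 3 fell. Beside these, 49.5%, 44.9% and 48.1% of all genes were called. Col4a1 (ENSMUSG00000031502, chr8:11198423-11312826) and Col4a2 (ENSMUSG00000031503, chr8:11312805-11449287), the chains of every basement membrane, lie head to head on opposite strands. Col4a1 measured 392, 971 and 7636 CPM in combined tumours, 436, 820 and 2308 CPM in Snf5-null tumours and 563, 1404 and 2455 CPM in SS18-SSX tumours. Col4a2 measured 202, 587 and 5002 CPM, 204, 410 and 1079 CPM, and 454, 1101 and 2242 CPM in the same order. All groups overlapped for both genes. Col4a2 in Snf5-null over SS18-SSX tumours lay next to the threshold, at -1.31 ± 0.54 (adjusted p = 0.0529) by edgeR and -1.26 (adjusted p = 0.0389) by DESeq2, and it passed without Snf5-null TATCre N49 (-1.51, adjusted p = 0.0299) and without any 1 of 3 combined TATCre libraries. In combined over Snf5-null tumours it was 1.07 ± 0.51 (adjusted p = 0.0873), and 1.85 (adjusted p = 0.0411) in TATCre groups only.

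The 2 chains kept a narrow proportion that nonetheless differed by genotype. The ratio of Col4a1 to Col4a2 per kilobase was 1.40 to 1.91 in combined tumours, 1.89 to 2.27 in Snf5-null tumours and 1.07 to 1.34 in SS18-SSX tumours. SS18-SSX libraries overlapped neither other genotype, and combined and Snf5-null libraries met only at the edge, where the lowest Snf5-null value was 1.885 and the highest combined value 1.913. Ratios carry no test here, and for SS18-SSX libraries the number series of the descriptions cannot be told apart from the genotype. The windows of Col4a1 (chr8:11312777-11313076, minus strand) and Col4a2 (chr8:11312555-11312854, plus strand) share 78 bases, and 1 GC box lies in the shared stretch.
Col4a1: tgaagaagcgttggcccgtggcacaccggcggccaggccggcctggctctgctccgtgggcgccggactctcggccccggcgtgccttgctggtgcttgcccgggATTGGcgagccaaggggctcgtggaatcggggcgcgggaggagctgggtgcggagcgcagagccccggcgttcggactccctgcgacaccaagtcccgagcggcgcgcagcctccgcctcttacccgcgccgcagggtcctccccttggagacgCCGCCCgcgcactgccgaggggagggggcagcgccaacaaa
Col4a2: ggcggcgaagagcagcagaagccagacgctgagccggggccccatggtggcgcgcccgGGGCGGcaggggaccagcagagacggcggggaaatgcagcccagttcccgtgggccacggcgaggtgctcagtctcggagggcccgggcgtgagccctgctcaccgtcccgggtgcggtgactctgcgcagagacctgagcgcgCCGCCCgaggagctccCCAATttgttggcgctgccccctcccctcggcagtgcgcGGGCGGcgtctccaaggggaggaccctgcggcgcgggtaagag

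Another head-to-head pair, Col4a5 and Col4a6 on the X chromosome, encodes chains of specialised basement membranes and separated the genotypes strongly. Col4a6 (ENSMUSG00000031273, chrX:141165403-141474076) measured 0.0776, 1.18 and 6.58 CPM in combined tumours, 10.4, 25.0 and 115 CPM in Snf5-null tumours and 6.02, 56.3 and 191 CPM in SS18-SSX tumours. Combined libraries lay below all Snf5-null libraries and overlapped SS18-SSX libraries only through combined Myf5Cre N1 at 6.58 CPM and SS18-SSX Myf5Cre N460 at 6.02 CPM. It fell by 3.96 ± 0.80 in combined over Snf5-null tumours (adjusted p = 0.000664), kept the call against both other genotypes in every alternative, and was not called between Snf5-null and SS18-SSX tumours (-0.93 ± 0.77, adjusted p = 0.33). Col4a5 (ENSMUSG00000031274, chrX:141475385-141689234) measured 5.11, 67.2 and 199 CPM in combined tumours, 28.8, 41.7 and 194 CPM in Snf5-null tumours and 258, 672 and 1751 CPM in SS18-SSX tumours. Every SS18-SSX library was above all others. Col4a5 fell by 3.05 ± 0.59 in combined over SS18-SSX tumours (adjusted p = 0.000579) and by 3.48 ± 0.63 in Snf5-null over SS18-SSX tumours (adjusted p = 0.000241), and was not called between combined and Snf5-null tumours (0.43 ± 0.55, adjusted p = 0.528). In Myf5Cre groups only, the combined over SS18-SSX change was -2.16 (adjusted p = 0.0512), and for TATCre against no Cre stated it was -3.94 (adjusted p = 0.00447).

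The neighbours therefore parted in the combined tumours, where Col4a6 was low relative to both other genotypes and Col4a5 was low relative to SS18-SSX tumours alone. Their ratio, Col4a6 to Col4a5 per kilobase, was 0.0016 to 0.145 in combined tumours, 0.272 to 0.859 in Snf5-null tumours and 0.0124 to 0.211 in SS18-SSX tumours. Snf5-null ratios overlapped with neither other genotype. The 2 windows (chrX:141474027-141474326, minus strand, and chrX:141475169-141475468, plus strand) lie 842 bases apart; each holds 1 GC box, and the Col4a5 window also has 1 CCAAT box.
Col4a6: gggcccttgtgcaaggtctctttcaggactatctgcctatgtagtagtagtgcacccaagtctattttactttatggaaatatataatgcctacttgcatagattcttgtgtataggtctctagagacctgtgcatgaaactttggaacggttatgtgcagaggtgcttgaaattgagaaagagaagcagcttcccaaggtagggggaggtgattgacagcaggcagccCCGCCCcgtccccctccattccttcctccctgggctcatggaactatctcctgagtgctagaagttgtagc
Col4a5: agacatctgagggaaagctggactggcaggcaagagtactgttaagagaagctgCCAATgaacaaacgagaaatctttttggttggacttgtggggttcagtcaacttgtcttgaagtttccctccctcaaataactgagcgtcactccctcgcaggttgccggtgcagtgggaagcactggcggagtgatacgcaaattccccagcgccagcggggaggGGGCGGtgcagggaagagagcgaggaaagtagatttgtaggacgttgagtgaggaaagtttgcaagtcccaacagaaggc

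**Figure D4:**
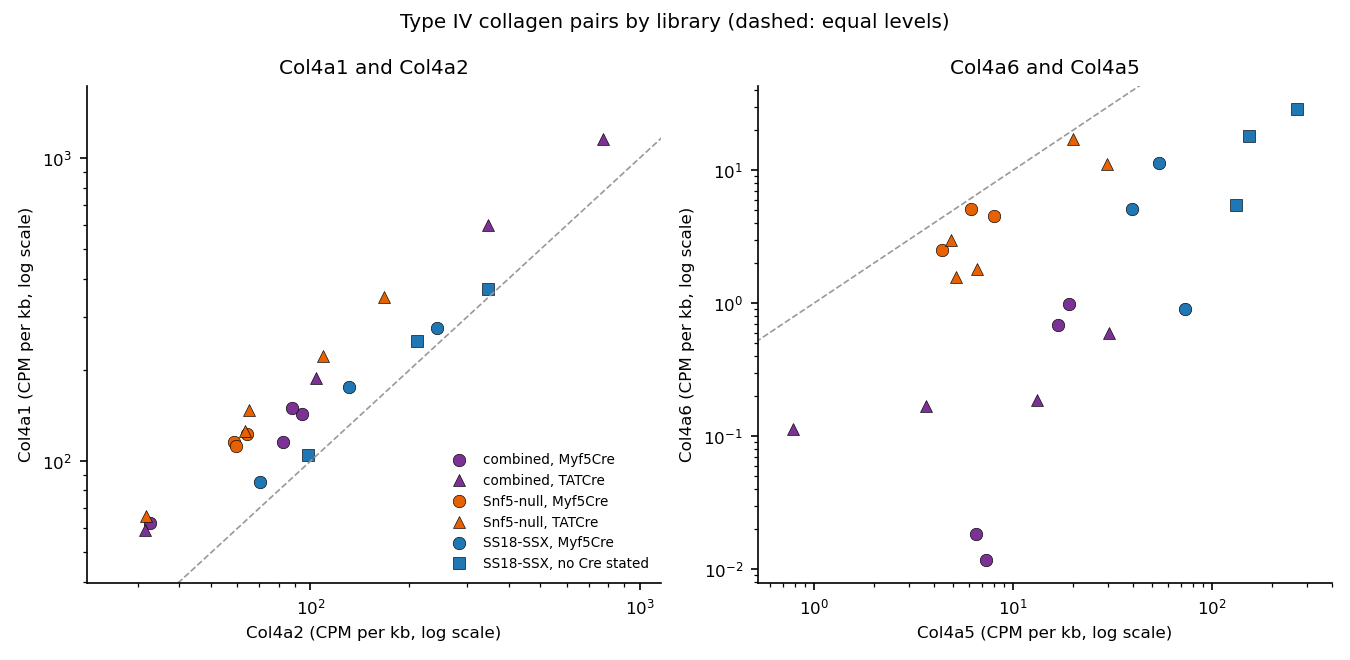
Levels of 2 head-to-head type IV pairs in each library (CPM per kilobase, both axes log). Colour shows genotype, marker shows Cre and a dashed line marks equal levels of both genes. Col4a1 and Col4a2 lie close to a line in all libraries, while the Col4a6 to Col4a5 ratio spreads from 0.0016 to 0.859.

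Low-level type IV and border collagens also moved. Col4a4, a chain of the kidney filter, measured 0.350, 2.72 and 7.52 CPM in combined tumours, 0.232, 0.602 and 1.19 CPM in Snf5-null tumours and 1.39, 2.71 and 4.75 CPM in SS18-SSX tumours. It rose by 2.44 ± 0.53 in combined over Snf5-null tumours (adjusted p = 0.00118) and fell by 2.10 ± 0.55 in Snf5-null over SS18-SSX tumours (adjusted p = 0.00419), where the libraries did not overlap and where Myf5Cre groups only gave -1.43 (adjusted p = 0.177). Its partner Col4a3, which lies head to head with it, fell by 2.33 ± 0.74 in Snf5-null over SS18-SSX tumours (adjusted p = 0.0142). This change became -1.39 (adjusted p = 0.125) without SS18-SSX Myf5Cre N460 and -2.08 (adjusted p = 0.148) in Myf5Cre groups only. Col18a1, whose tail fragment is endostatin, measured 128, 593 and 1484 CPM in combined, 201, 374 and 543 CPM in Snf5-null and 64.5, 180 and 389 CPM in SS18-SSX tumours and rose by 1.60 ± 0.57 in combined over SS18-SSX tumours (adjusted p = 0.0291), a call lost without any 1 of 7 libraries, at 1.32 to 1.54, in Myf5Cre groups only, at 1.53 (adjusted p = 0.146), and for TATCre against no Cre stated, at 1.67 (adjusted p = 0.137). Col15a1, a vessel and muscle border collagen, fell by 2.18 ± 0.69 in combined over Snf5-null tumours (adjusted p = 0.0142) and rose by 2.19 ± 0.77 in Snf5-null over SS18-SSX tumours (adjusted p = 0.0243). Without Snf5-null Myf5Cre N30 these were -1.60 (adjusted p = 0.0708) and 1.60 (adjusted p = 0.0829), and the first was -3.35 without combined TATCre 78780. In TATCre groups only, Col15a1 was -0.887 (adjusted p = 0.455) for combined over Snf5-null tumours. For Snf5-null over SS18-SSX tumours it was 2.29 (adjusted p = 0.119) in the Myf5Cre groups and 2.09 (adjusted p = 0.13) for TATCre against no Cre stated. Col7a1, the anchoring fibril collagen of skin, rose by 2.31 ± 0.79 in combined over Snf5-null tumours (adjusted p = 0.0215). Its level was 128 CPM in TATCre 78774, and without that library the change was 0.72 (adjusted p = 0.277); in Myf5Cre groups only it was 1.11 (adjusted p = 0.473).

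Network collagens were called in few comparisons, and type VIII gave the clearest of them. Of 8, 2 rose and 1 fell in combined over Snf5-null tumours, and none rose and 2 fell in combined over SS18-SSX tumours. In Snf5-null over SS18-SSX tumours 1 rose and 1 fell. Among all genes, 49.5%, 44.9% and 48.1% were called in the same order. Col8a1 (ENSMUSG00000068196, chr16:57624258-57754737), a short-chain collagen of vessel walls and the corneal endothelium, measured 6.42, 13.8 and 104 CPM in combined tumours, 71.5, 631 and 1257 CPM in Snf5-null tumours and 16.2, 102 and 176 CPM in SS18-SSX tumours. Without the 1 low Snf5-null library, TATCre N1 at 71.5 CPM, Snf5-null values began at 432 CPM, above every library of the other genotypes. Col8a1 fell by 4.76 ± 0.64 in combined over Snf5-null tumours (adjusted p = 1.32e-05) and by 2.004 ± 0.595 in combined over SS18-SSX tumours (adjusted p = 0.0109; -1.17, adjusted p = 0.0941, without SS18-SSX Myf5Cre N381; -1.24, adjusted p = 0.281, for TATCre against no Cre stated). It rose by 2.75 ± 0.66 in Snf5-null over SS18-SSX tumours (adjusted p = 0.00218; 3.75 without that library).

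Col8a2, its partner chain, did not follow. It measured 0.543, 4.38 and 30.5 CPM in combined tumours, 0.299, 10.7 and 145 CPM in Snf5-null tumours and 41.7, 92.1 and 116 CPM in SS18-SSX tumours, and combined libraries all lay below SS18-SSX libraries. Col8a2 fell by 3.73 ± 0.75 in combined over SS18-SSX tumours (adjusted p = 0.000748) and was -2.91 ± 0.76 in Snf5-null over SS18-SSX tumours (adjusted p = 0.0043), a call that ended at -0.54 (adjusted p = 0.683) when only TATCre was set against no Cre stated and was -3.86 without Snf5-null Myf5Cre N30. With genotype alone in the model the Snf5-null over SS18-SSX call was also lost, at -0.803 (adjusted p = 0.521). The ratio of Col8a1 to Col8a2 per kilobase was 0.684 to 10.4 in combined, 7.35 to 1494 in Snf5-null and 0.329 to 1.86 in SS18-SSX tumours.

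Type VI collagen, the beaded filament that surrounds cells in muscle and connective tissue, was not called by edgeR for its 3 main chains in the genotype comparisons, and DESeq2 called some. Col6a1 measured 32.95, 184 and 2105 CPM in combined tumours, 88.5, 749 and 2370 CPM in Snf5-null tumours and 10.5, 157 and 236 CPM in SS18-SSX tumours, and its largest genotype change was 1.97 ± 0.89 in Snf5-null over SS18-SSX tumours (adjusted p = 0.0746; 2.02, adjusted p = 0.0214, by DESeq2). Without combined TATCre 78774 Col6a1 fell in combined over Snf5-null tumours by 2.58 (adjusted p = 0.00191), and Col6a2 by 1.80 (adjusted p = 0.0134). Col6a3 measured 37.9, 178 and 5389 CPM in combined tumours, 50.9, 655 and 1583 CPM in Snf5-null tumours and 9.70, 143 and 221 CPM in SS18-SSX tumours. The 5389 CPM belonged to combined TATCre N49, where Col6a3 stood at 30.6 times Col6a1 per kilobase, against 0.0842 to 1.14 in Snf5-null tumours. Col6a3 was not called between combined and Snf5-null tumours (0.36 ± 0.74, adjusted p = 0.709). In combined over SS18-SSX tumours it was 2.002 ± 0.84 (adjusted p = 0.0578) by edgeR and 1.95 (adjusted p = 0.0215) by DESeq2, and in Snf5-null over SS18-SSX tumours 1.65 ± 0.83 (adjusted p = 0.108) and 1.69 (adjusted p = 0.0498).

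The same library carried the long type VI chains. Col6a6, a chain related to Col6a3, measured 1.27, 8.47 and 2323 CPM in combined tumours, 0.250, 0.929 and 10.9 CPM in Snf5-null tumours and 0.218, 5.84 and 13.3 CPM in SS18-SSX tumours, the 2323 CPM being TATCre N49. Its rise of 4.19 ± 1.18 in combined over Snf5-null tumours (adjusted p = 0.00707) became 1.53 (adjusted p = 0.0801) without N49 and 4.93 without Snf5-null Myf5Cre N30. Col6a5 rose by 3.76 ± 1.18 (adjusted p = 0.0135), and without N49, at 404 CPM, by 1.80 (adjusted p = 0.0956); without Snf5-null Myf5Cre N30 it was 3.58 (adjusted p = 0.0511). In Myf5Cre groups only, Col6a6 was -0.57 (adjusted p = 0.792) and Col6a5 0.0936 (adjusted p = 0.971). Col6a5 and Col6a6 share 3.42% and 3.54% of their 50-base exon words with other genes, and the sources used here do not state how reads with several matches were treated.

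**Figure D5:**
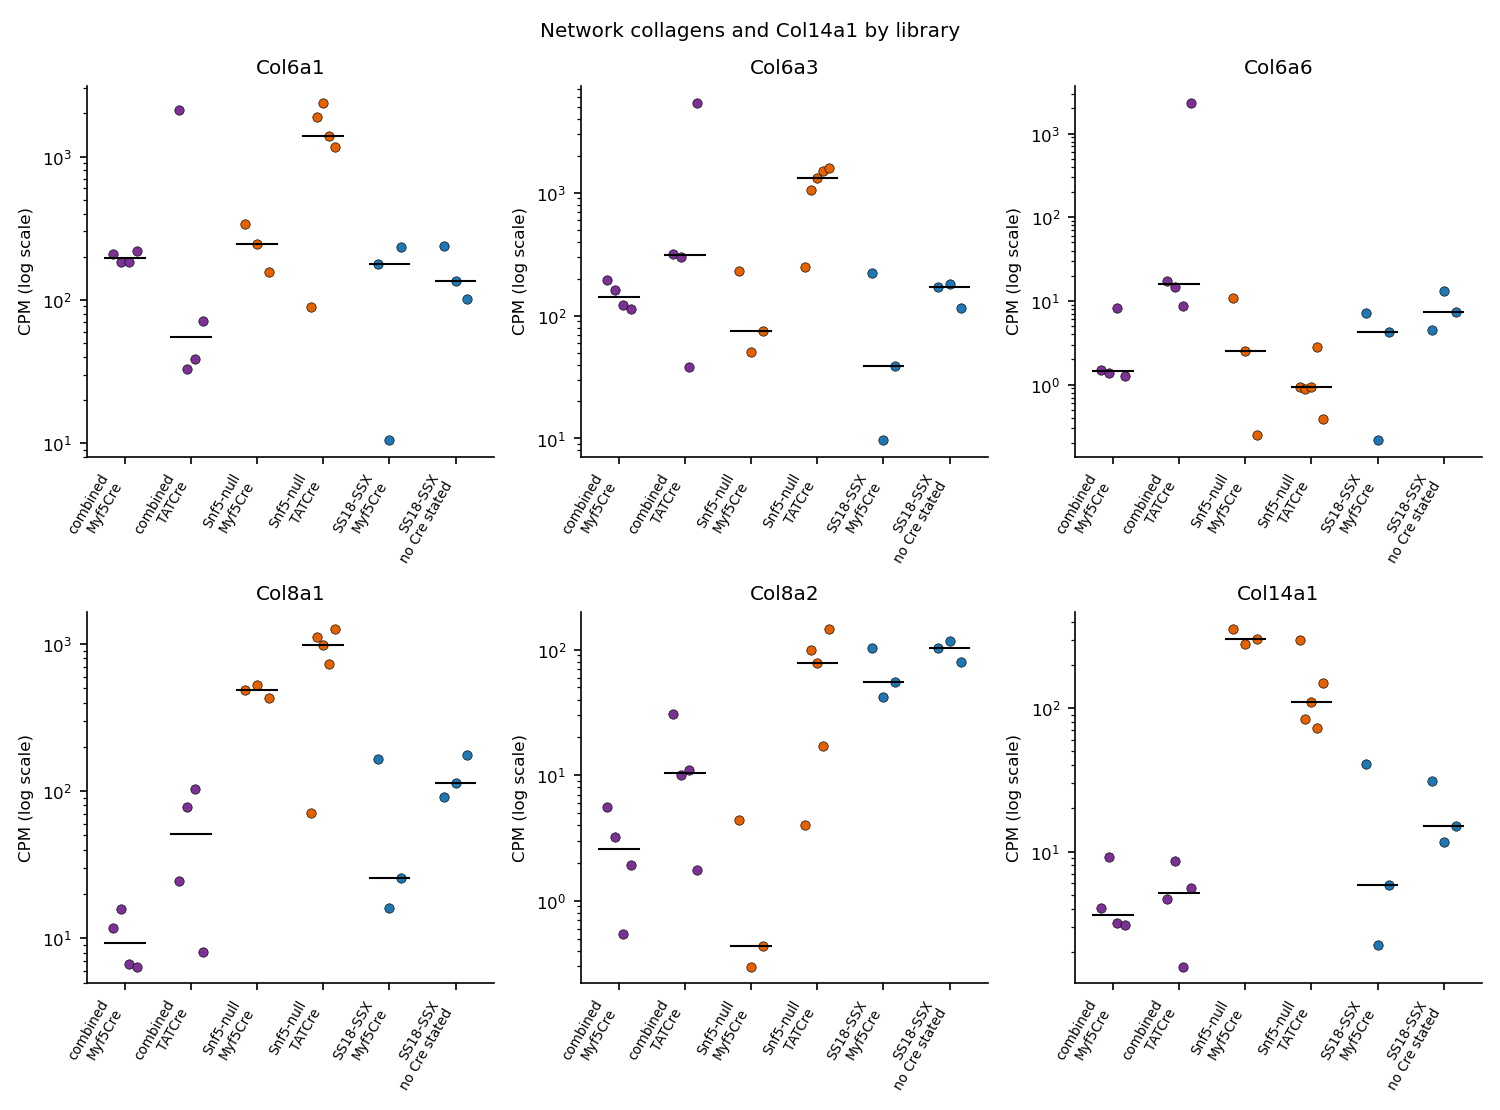
Level (CPM, log axis) of 5 network collagens and of Col14a1 in every library by genotype and Cre; points are libraries and lines are group medians. Col6a6 is set apart by 1 combined TATCre library at 2323 CPM, and Col14a1 separates Snf5-null libraries at 72.5 CPM and above from all others at 40.6 CPM and below.

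Among the other collagens, Col14a1 had the lowest adjusted p of any collagen in the 3 genotype comparisons. Of 12, 4 rose and 4 fell in combined over Snf5-null tumours, and 4 rose and 3 fell in combined over SS18-SSX tumours. In Snf5-null over SS18-SSX tumours 5 rose and 4 fell. The matching shares of all genes called were 49.5%, 44.9% and 48.1%. Col14a1 (ENSMUSG00000022371, chr15:55307750-55520803), a fibre-associated collagen of dense connective tissue, measured 1.58, 4.35 and 9.09 CPM in combined tumours, 72.5, 214 and 354 CPM in Snf5-null tumours and 2.22, 13.3 and 40.6 CPM in SS18-SSX tumours. Snf5-null libraries lay above all others. It fell by 5.40 ± 0.58 in combined over Snf5-null tumours (adjusted p = 1.07e-06) and rose by 3.58 ± 0.59 in Snf5-null over SS18-SSX tumours (adjusted p = 0.000103; 4.71 without SS18-SSX Myf5Cre N381). Its fall of 1.82 ± 0.52 in combined over SS18-SSX tumours (adjusted p = 0.00881) was lost without SS18-SSX Myf5Cre N381, at -0.83 (adjusted p = 0.124), in Myf5Cre groups only, at -1.74 (adjusted p = 0.0763), and for TATCre against no Cre stated, at -1.91 (adjusted p = 0.067). Col12a1, a related fibre-associated collagen, measured 34.6, 192 and 3494 CPM, 14.3, 590 and 2241 CPM, and 21.8, 134 and 454 CPM in combined, Snf5-null and SS18-SSX tumours and was called in no genotype comparison by edgeR or DESeq2.

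Col19a1, a rare fibre-associated collagen of muscle and brain, measured 0.117, 0.424 and 31.4 CPM in combined tumours, 0.164, 31.9 and 217 CPM in Snf5-null tumours and 0, 0.258 and 7.24 CPM in SS18-SSX tumours. The high values were the 3 Snf5-null Myf5Cre libraries at 170, 200.5 and 217 CPM. It fell by 3.94 ± 1.21 in combined over Snf5-null tumours (adjusted p = 0.0121; -2.71 without Snf5-null TATCre N1 and -4.67 without either combined TATCre 78780 or combined Myf5Cre N1). In Snf5-null over SS18-SSX tumours it rose by 5.86 ± 1.53 (adjusted p = 0.00424; 8.40 without SS18-SSX Myf5Cre N381 and 4.64 without Snf5-null TATCre N1). Within Cre the first call missed the threshold, at -4.05 (adjusted p = 0.0795) under Myf5Cre and -3.84 (adjusted p = 0.0892) under TATCre. The second missed it for TATCre against no Cre stated, at 5.39 (adjusted p = 0.0621). Col16a1, another fibre-associated collagen, fell by 1.93 ± 0.50 in Snf5-null over SS18-SSX tumours (adjusted p = 0.0038). This was -2.95 (adjusted p = 0.00822) in Myf5Cre groups only but -0.912 (adjusted p = 0.283) for TATCre against no Cre stated and -0.834 (adjusted p = 0.331) with genotype alone in the model. It fell by 1.20 ± 0.48 in combined over SS18-SSX tumours (adjusted p = 0.0483), which missed the threshold in most alternatives.

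Membrane collagens were called in both directions. Col23a1, a membrane collagen that can be shed, measured 6.15, 20.8 and 97.4 CPM in combined tumours, 2.44, 11.2 and 27.6 CPM in Snf5-null tumours and 5.13, 219 and 429 CPM in SS18-SSX tumours. It fell by 3.14 ± 0.60 in combined over SS18-SSX tumours (adjusted p = 0.000513) and by 4.84 ± 0.69 in Snf5-null over SS18-SSX tumours (adjusted p = 2.5e-05; -4.22 without SS18-SSX Myf5Cre N460). Its rise of 1.69 ± 0.57 in combined over Snf5-null tumours (adjusted p = 0.0208) was lost without combined Myf5Cre N4, at 1.15 (adjusted p = 0.101), and without any 1 of the 3 Snf5-null Myf5Cre libraries, and was -0.33 (adjusted p = 0.748) in TATCre groups only. Col17a1, the hemidesmosome collagen of epithelia, measured 0.0732, 0.571 and 17.4 CPM in combined, 2.65, 8.30 and 21.8 CPM in Snf5-null and 0.109, 0.302 and 0.392 CPM in SS18-SSX tumours. All Snf5-null libraries lay above all SS18-SSX libraries (5.17 ± 1.002, adjusted p = 0.000408). The sum of 7 epithelial markers was 4.81 to 31.02 CPM in Snf5-null tumours and 25.2 to 116 CPM in SS18-SSX tumours. The part of those cells was not tested. In combined over Snf5-null tumours Col17a1 fell by 2.62 ± 0.78 (adjusted p = 0.01), or by 4.51 without TATCre 78774, the library at 17.4 CPM, and it was -0.87 (adjusted p = 0.51) in TATCre groups only. Against SS18-SSX tumours its rise of 2.55 ± 0.90 (adjusted p = 0.0286) was 0.65 (adjusted p = 0.348) without that library and 0.873 (adjusted p = 0.591) in Myf5Cre groups only.

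Col13a1, a membrane collagen of the neuromuscular junction, rose by 3.61 ± 0.76 in combined over Snf5-null tumours (adjusted p = 0.000919; 2.92 without combined TATCre 78774) and by 2.25 ± 0.76 over SS18-SSX tumours (adjusted p = 0.0218; 1.56, adjusted p = 0.0691, without that library, and 2.90 without SS18-SSX Myf5Cre N460). The first call was lost in TATCre groups only, at 2.31 (adjusted p = 0.0542). The second was lost in Myf5Cre groups only, at 2.17 (adjusted p = 0.121), and for TATCre against no Cre stated, at 2.33 (adjusted p = 0.119). It measured 2.75, 38.3 and 159 CPM in combined, 1.34, 4.66 and 28.6 CPM in Snf5-null and 3.70, 8.72 and 30.1 CPM in SS18-SSX tumours, with overlap throughout. Col26a1 was the member with the largest rise in combined over SS18-SSX tumours, at 4.35 ± 1.28 (adjusted p = 0.0104), with 0.220, 7.90 and 117 CPM against 0.178, 0.372 and 2.42 CPM; it was 3.73 without combined TATCre 78780 and 5.23 without SS18-SSX Myf5Cre N460, and the call was lost in Myf5Cre groups only, at 2.67 (adjusted p = 0.214). In combined over Snf5-null tumours Col25a1 and Col22a1 rose and Col28a1 fell, at 3.32 ± 0.89 (adjusted p = 0.00537), 2.91 ± 0.75 (adjusted p = 0.00394) and -3.05 ± 0.90 (adjusted p = 0.00953). Without combined TATCre 78780 Col25a1 was 2.45 and Col28a1 -4.64, and without combined TATCre 78774 Col22a1 was 1.88. In TATCre groups only, Col25a1 was 2.02 (adjusted p = 0.144) and Col22a1 1.21 (adjusted p = 0.295), and in Myf5Cre groups only Col28a1 was -1.64 (adjusted p = 0.348). In combined over SS18-SSX tumours Col22a1 rose by 1.98 ± 0.76 (adjusted p = 0.0407), a call lost without combined TATCre 78774 (0.95, adjusted p = 0.21) without 6 other single libraries, in Myf5Cre groups only (1.14, adjusted p = 0.4) and for TATCre against no Cre stated (2.82, adjusted p = 0.0741). In Snf5-null over SS18-SSX tumours Col28a1 and Col26a1 rose, and Col25a1 and Col20a1 fell. Col28a1 was -0.81 (adjusted p = 0.666) in Myf5Cre groups only. Col26a1 was 1.99 (adjusted p = 0.119) without Snf5-null TATCre N1 and also lost the call without SS18-SSX N381, N428, B or N2. Col25a1 was -1.38 (adjusted p = 0.161) without SS18-SSX Myf5Cre N460 and -0.428 (adjusted p = 0.794) for TATCre against no Cre stated. Col20a1 was -0.89 (adjusted p = 0.218) without SS18-SSX Myf5Cre N381 and also lost the call without SS18-SSX A or B and without any 1 of the 3 Snf5-null Myf5Cre libraries. Both Col26a1 and Col20a1 were lost in Myf5Cre groups only and for TATCre against no Cre stated.

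Within a genotype, the Cre that started the tumour went with fewer collagen calls than the genotype comparisons gave. In Snf5-null tumours, 1 of 43 collagens tested was higher and 4 were lower under Myf5Cre than under TATCre. Over all genes 4.92% were called, 1.78% higher and 3.14% lower. Col16a1 stood at 26.1, 29.7 and 109 CPM in the Myf5Cre libraries, against 177, 576.5, 738, 804 and 844 CPM in the TATCre libraries (-3.52 ± 0.77, adjusted p = 0.0148). Col12a1 stood at 14.3, 24.7 and 102 CPM, against 111, 1069, 1398, 1606 and 2241 CPM (-4.77 ± 1.35, adjusted p = 0.0472). Both genes were below every TATCre library in each Myf5Cre library. Col8a2 and Col28a1 were also lower, at -5.33 ± 1.26 (adjusted p = 0.0209) and -5.86 ± 1.58 (adjusted p = 0.0398), and Col9a1 was higher at 4.95 ± 0.95 (adjusted p = 0.00804), with 0.647, 1.36 and 3.63 CPM against 0 to 0.146 CPM. All 4 lower calls ended without Myf5Cre N31 or without Myf5Cre N33, which leave values of -3.17 to -5.53 and adjusted p values of 0.1 to 0.222. The same held with N31 and N33 summed, whose log2 CPM correlated at 0.987. The calls of Col12a1 and Col28a1 also ended without TATCre N49, N43L, N43R or N51, and without some libraries of other genotypes. Without Myf5Cre N30, the values were -4.50 for Col16a1, -6.04 for Col12a1 (adjusted p = 0.0602), -7.54 for Col8a2 and -6.92 for Col28a1 (adjusted p = 0.0698). The Col9a1 call ended without N33, at 4.07 (adjusted p = 0.0664), and was 5.76 without TATCre N51. Tenocyte markers moved with the same groups: the sum of 4 was 12.8 to 26.6 CPM under Myf5Cre and 114 to 1313 CPM under TATCre, and the part of those cells was not tested.

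In combined tumours no collagen was higher and 2 were lower under Myf5Cre than under TATCre. Over all genes 1.78% were called, 0.56% higher and 1.22% lower. Each collagen call shrank and ended without 1 TATCre library. Both also missed the threshold without any 1 of the combined Myf5Cre libraries (adjusted p of 0.0826 to 0.137), and without some libraries of other genotypes. Col15a1 stood at 9.21, 9.31, 11.1 and 11.7 CPM in the Myf5Cre libraries, against 22.5, 34.3, 58.95 and 736 CPM in the TATCre libraries. Its change of -4.37 ± 1.06 (adjusted p = 0.0418) was -1.86 (adjusted p = 0.168) without TATCre 78780. Col6a6 stood at 1.27, 1.38, 1.497 and 8.23 CPM, against 8.71, 14.55, 17.5 and 2323 CPM, and its change of -7.59 ± 1.81 (adjusted p = 0.0393) was -2.12 (adjusted p = 0.389) without TATCre N49. The difference in Cre effect between combined and Snf5-null tumours passed for Col6a6 alone, where 2.46% of all genes were called, 1.33% higher and 1.13% lower; it was -9.53 ± 2.23 (adjusted p = 0.0311), and -4.06 (adjusted p = 0.135) without N49. Between SS18-SSX Myf5Cre and SS18-SSX tumours with no Cre stated, none of 43 collagens was called by edgeR or by DESeq2. In the edgeR fit 1 had an unadjusted p below 0.05, and 2.13% of all genes were called, 1.26% higher and 0.872% lower. These 2 groups hold different number series in their descriptions, so series and Cre label cannot be told apart here.

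Genes that make and bind collagen were described the same way. Of 29 genes for the folding, modification and processing of collagen, 9 rose and 6 fell in combined over Snf5-null tumours, 9 rose and 3 fell in combined over SS18-SSX tumours, and 12 rose and 6 fell in Snf5-null over SS18-SSX tumours. Over all genes, 49.5%, 44.9% and 48.1% were called in these comparisons, so the list's counts stand near or below that share in the first 2 and above it in the third. The median log2 fold changes were 0.50, 0.15 and 0.34, against 0.23, -0.09 and -0.06 for all genes. Adamts14, a protease that trims procollagen, was -5.67 ± 0.88 (adjusted p = 5.88e-05), P4ha3, a proline hydroxylase subunit, was -4.67 ± 0.83 (adjusted p = 0.000192) and Pcolce, an enhancer of procollagen trimming, was -4.21 ± 0.37 (adjusted p = 1.4e-07) in combined over Snf5-null tumours. Pcolce did not overlap between those genotypes. Against SS18-SSX tumours, combined tumours had lower Tll2, a trimming protease (-3.04 ± 0.45, adjusted p = 7.52e-05), lower Pcolce (-2.92 ± 0.36, adjusted p = 1.94e-05) and higher Plod1, a lysine hydroxylase (2.34 ± 0.42, adjusted p = 0.0003). In Snf5-null over SS18-SSX tumours Tll2 fell by 6.12 ± 0.56 (adjusted p = 4.83e-07) while Adamts14 rose by 5.13 ± 0.97 (adjusted p = 0.000339) and P4ha3 by 4.46 ± 0.92 (adjusted p = 0.000688). Under Myf5Cre relative to TATCre in Snf5-null tumours, 1 of the 29 rose and 4 fell, led by P4ha3 (-5.14 ± 1.30, adjusted p = 0.0285). Over all genes 1.78% were called higher and 3.14% lower there. In combined tumours 1 of the 29 fell, Plod2 (-2.52 ± 0.59, adjusted p = 0.0385), where 0.56% of all genes were called higher and 1.22% lower.

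Of 9 collagen receptors tested, 1 rose and 6 fell in combined over Snf5-null tumours, none rose and 1 fell in combined over SS18-SSX tumours, and 5 rose and 2 fell in Snf5-null over SS18-SSX tumours. Over all genes, 49.5% (20.5% lower), 44.9% and 48.1% (22.2% higher) were called in these comparisons. The integrin chains Itga11 and Itga10 and the leucocyte receptor Lair1 were -4.70 ± 0.52 (adjusted p = 1.76e-06), -4.21 ± 0.60 (adjusted p = 2.22e-05) and -4.04 ± 0.47 (adjusted p = 2.65e-06) in combined over Snf5-null tumours. In Snf5-null over SS18-SSX tumours they were 4.65 ± 0.59 (adjusted p = 8.75e-06), 5.24 ± 0.71 (adjusted p = 1.67e-05) and 3.73 ± 0.52 (adjusted p = 2.06e-05). For all 3 genes the Snf5-null libraries lay above every library of both other genotypes. Lair1 is a leucocyte gene, and the summed macrophage and leucocyte markers, given above, moved the same way. Ddr2, a receptor kinase for fibrillar collagen, fell in combined over SS18-SSX tumours by 2.20 ± 0.71 (adjusted p = 0.0171).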

How the data were processed

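Total RNA was taken from fresh frozen mouse tumours and made into stranded mRNA libraries, per the labels' protocols. The deposited table holds raw counts per gene, made by the authors; the submitters' processing notes list STAR 2.7.5a, RSEM, featureCounts, cutadapt, DESeq2 and the build mm10 without saying what each did, so the counting program and its strand setting are not given in the sources used here. Of 48440 gene IDs, 48058 matched a GENCODE M21 symbol. Libraries were grouped by their titles, and depth per library was 8642648 to 25177722 counts.

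Counts were tested with edgeR 4.0.16 (R 4.3.3), using the robust quasi-likelihood fit over 6 groups and 22 libraries, TMM scaling and filterByExpr with a minimum of 10 counts, which left 18929 genes holding 99.91% of counts. P-values were adjusted by Benjamini-Hochberg over all genes tested, with a threshold of 0.05. The SE of a log2 fold change is its size divided by the square root of F. Levels are CPM with TMM factors, and levels between genes are CPM per kilobase of the mRNA with the longest coding sequence. Levels and sums carry no test. The code was tested on simulated data.

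Alternatives were DESeq2 1.42.0, its size factors in edgeR, no count filter, genotype alone in the model and single Cre groups. Others were TATCre against no Cre stated, N43L with N43R or N31 with N33 summed, each library left out, and sums without length. Across tested genes log2 CPM correlated at 0.982 between N43L and N43R and at 0.987 between N31 and N33. Combined Myf5Cre N3 and N4 were as alike, at 0.984, but were not summed and count as separate libraries throughout. Leaving out 3 libraries together, a block for title tags shared by 2 groups and a length over all exons were chosen after seeing the data. All collagens may be named; full values are given for a listed set and for the called members of largest change per class. From the synthesis and receptor lists, called genes of largest change are named. The members and lists were chosen with earlier results of these data known.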

Additional observations from a re-analysis of the deposited data

Results flagged for a closer look

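Of 129 tests of a group of 4 or 5 libraries for a value far from the rest (on log2 CPM), 15 met the limit, where chance gives about 1 in 20. Snf5-null TATCre N1 was the low library in 10 of them. It held Col1a2 at 1197 CPM, against 4476 to 7117 CPM in the other 4 libraries of its group, and Col8a1 at 71.5 CPM, against 736.5 to 1257 CPM. The type VI chains Col6a1, Col6a2 and Col6a3 stood there at 88.5, 91.2 and 248.5 CPM, against lowest values elsewhere in the group of 1160, 1201 and 1062 CPM. Col11a1 stood at 47.7 CPM (others from 147 CPM), Col12a1 at 111 CPM (from 1069 CPM), Col16a1 at 177 CPM (from 576.5 CPM), Col23a1 at 5.17 CPM (from 17.3 CPM) and Col28a1 at 3.20 CPM (from 220 CPM).

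Combined TATCre N49 had Col6a6 at 2323 CPM, against 8.71 to 17.5 CPM in the other 3 libraries. Combined Myf5Cre N3 had Col6a6 at 8.23 CPM, against 1.27 to 1.497 CPM, and Col4a2 at 210.3 CPM, against 533 to 609 CPM. Combined Myf5Cre N4 had Col6a5 at 0.545 CPM, against 1.63 to 1.93 CPM. Snf5-null TATCre N43R had Col20a1 at 1.31 CPM, against 1.98 to 2.29 CPM. The effect of Myf5Cre over TATCre differed between combined and Snf5-null tumours for Col6a6, by -9.53 on the log2 scale (edgeR interaction, adjusted p = 0.0311). That call was lost without combined TATCre N49, at -4.06 (adjusted p = 0.135), and with no count filter, at -9.67 (adjusted p = 0.0813). It was also lost without any 1 of several other combined or Snf5-null libraries.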

How the results depend on the processing

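Of 66 collagen calls, 20 held in every alternative, all among the 58 genotype calls. Combined over Snf5-null: 12 higher and 10 lower, with 4 lower in TATCre groups only; single libraries left out gave 10 to 13 and 9 to 12. Combined over SS18-SSX: 6 higher and 7 lower; Myf5Cre groups only gave 0 and 4, no count filter 2 higher, TATCre against no Cre stated 4 lower and DESeq2 11 lower; single libraries left out gave 2 to 8 and 4 to 9. Snf5-null over SS18-SSX: 11 higher and 12 lower; Myf5Cre groups only gave 6 higher, no filter 7 higher, and TATCre against no Cre stated 5 and 7; single libraries left out gave 9 to 12 and 9 to 13. Cre in Snf5-null tumours: 1 higher and 4 lower; 3 libraries left out together gave 4 higher, no filter 1 lower, N43L with N43R 2 lower, N31 with N33 0 lower and DESeq2 10 lower; single libraries left out gave 0 to 3 and 0 to 5. Cre in combined tumours: 0 higher and 2 lower; DESeq2 gave 1 and 9, no filter 0 lower, N43L with N43R 0 and N31 with N33 1; single libraries left out gave 0 to 1 and 0 to 6. The interaction: 0 higher and 1 lower; DESeq2 gave 2 higher, and no filter and both summed pairs 0 lower; single libraries left out gave 0 to 4 and 0 to 3. SS18-SSX groups: 1 lower without the 3 libraries (Col8a1). Directions reversed for Col6a3 in combined over Snf5-null tumours without the 3 libraries (-1.31), Col6a6 there in Myf5Cre groups only (-0.57), Col23a1 there in TATCre groups only (-0.33) and Col28a1 in Snf5-null over SS18-SSX tumours in Myf5Cre groups only (-0.81). The cause was not tested. DESeq2 size factors moved the median of all genes in combined over Snf5-null tumours to 0.12, against 0.23 with TMM. DESeq2 gave no adjusted p for Col6a6.

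Title tags N1, N2 and N49 each occur in 2 groups, and nothing in the labels says that a shared tag pairs libraries. Deviations from the group means correlated across genes at -0.181, -0.0889 and -0.0581 within these pairs. With only 1 pair of libraries for each tag, these values cannot decide whether a tag links them. A fit with the tags as a replicate block, chosen after seeing the data, gave 11 higher and 10 lower in combined over Snf5-null tumours, 5 and 8 in combined over SS18-SSX tumours, and 9 and 13 in Snf5-null over SS18-SSX tumours. With this block, Cre in Snf5-null tumours gave 2 and 2, Cre in combined tumours 0 and 0, and the interaction 0 and 0. Depth limits collagens near 1 CPM, such as Col9a1 and Col24a1, where a library holds few reads.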
